A study of Homo sapiens with 7 samples.

Results

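The genes described here are 9 chaperone genes of muscle, taken by name from the expression table: the small heat shock protein genes CRYAB, HSPB1, HSPB2, HSPB3, HSPB6, HSPB7 and HSPB8, and 2 partner genes, BAG3 and UNC45B. All 9 were among the 23262 genes with values. The set was chosen by name with the FPKM values of these genes in the same 7 libraries already known, so all their levels and ratios are a description and carry no test. The libraries come from human embryonic stem cells (hESC) of the H3 line carrying reporters for NKX2-5 (eGFP), which encodes a regulator of the early heart, and for alpha-MHC (mCherry), a myosin heavy chain of heart muscle. The groups are undifferentiated hESC on day 0, CD13+/ROR2+ (labelled mesoderm progenitor) and CD13-/ROR2- (labelled endoderm progenitor) cells on day 3 of cardiac differentiation, NKX2-5+ (labelled cardiac progenitor) and NKX2-5- fractions of CD13+/ROR2+ cells on day 7, and aMHC+ (labelled cardiomyocyte) and aMHC- fractions of CD13+/ROR2+/NKX2-5+ cells on day 14. Each group is 1 library, from double-sorted cells per the labels, and the labels call the day 7 NKX2-5- and day 14 aMHC- cells unknown in type. The labels do not say on which day the day 7 and day 14 cells were sorted for CD13 and ROR2. The cell line label counts the reporter's gene number up from sample to sample, so the name given for day 0 is used here for all of them. There is no replicate, so no difference has a replicate check and no p-value or standard deviation is given.

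Small heat shock proteins hold unfolding proteins without using ATP and share an alpha-crystallin domain. In muscle they bind desmin, titin, actin and filamin, which are under repeated load, and pass damaged clients to the HSP70 machine. BAG3 links HSPB8 to HSP70 and, with the ubiquitin ligase CHIP (encoded by STUB1), sends damaged filamin to autophagy. UNC45B works with HSP90 to fold the myosin head.

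Values are FPKM, which are scaled by transcript length and library. The FPKM of all genes still summed to 108220 in day 7 NKX2-5+ and 414781 in day 7 NKX2-5-, the lowest and highest sums. Ratios between libraries therefore depend on the scaling. The size rule for calling a gene higher or lower asked for a ratio of (FPKM + 1) of 4-fold or more (2 on the log2 scale) and for 5 FPKM or more in the higher library. Folds printed below are plain quotients of FPKM. Depth is known only in relative terms: the labels give only a lower limit of reads per sample, and the steps between low values put day 7 NKX2-5+ at 0.599 and day 3 CD13+/ROR2+ at 2.64 times the hESC depth, the lowest and highest among libraries with a sharp estimate. In day 7 NKX2-5+ 9699 genes reached 1 FPKM, and 10656 to 10830 did so elsewhere. Median-ratio scaling adds 0.43 to log2 ratios of day 7 NKX2-5+ over NKX2-5- and 0.21 to those of day 14 aMHC+ over aMHC-, and the scaled ratio is given where it matters. The cardiomyocyte label was read on 9 markers (TNNT2, TNNI1, TNNI3, MYL4, MYL3, MYH6, ACTN2, NPPA and PLN), all of which were at least 32.7 FPKM in day 14 aMHC+. MYH6 encodes alpha-MHC, whose reporter was sorted on, so it is no independent check. The 9 were also at least 33.9 FPKM in day 7 NKX2-5+ and at least 7.01 in day 14 aMHC-, so their presence does not set day 14 aMHC+ apart. In bulk RNA, fewer cells of a type and less RNA per cell cannot be told apart.

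The promoters of 6 of the 9 genes were matched by symbol in RefSeq (GRCh38.p14), and 5 are shown because these genes differ in when their RNA appears: HSPB7 and HSPB3 were near or at 0 until day 7, HSPB1 was abundant from hESC on, and HSPB8 and BAG3 are the pair that acts with HSP70. Each run is the 250 bases before the start site, 5′ to 3′ on the gene's strand. Capitals mark matches to a MEF2 element, the letters TATAAA, and a heat shock element written GAANNTTC or TTCNNGAA, all on both strands. The MEF2 element was written YTAWWWWTAR, where Y is C or T, W is A or T and R is A or G. The windows are chr1:16018044-16018293 (minus strand) for HSPB7, chr5:54455449-54455698 (plus strand) for HSPB3, chr7:76302423-76302672 (plus strand) for HSPB1, chr12:119178681-119178930 (plus strand) for HSPB8 and chr10:119651130-119651379 (plus strand) for BAG3.
HSPB7: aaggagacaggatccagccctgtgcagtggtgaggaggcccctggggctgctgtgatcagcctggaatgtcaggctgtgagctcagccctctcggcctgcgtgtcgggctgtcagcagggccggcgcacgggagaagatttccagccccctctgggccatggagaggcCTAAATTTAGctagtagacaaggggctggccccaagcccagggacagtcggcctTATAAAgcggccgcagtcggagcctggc
HSPB3: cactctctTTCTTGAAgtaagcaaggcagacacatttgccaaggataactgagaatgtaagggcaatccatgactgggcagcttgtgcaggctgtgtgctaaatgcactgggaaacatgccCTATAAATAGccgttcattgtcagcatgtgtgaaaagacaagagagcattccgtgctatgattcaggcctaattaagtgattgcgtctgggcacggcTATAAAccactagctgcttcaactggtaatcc
HSPB1: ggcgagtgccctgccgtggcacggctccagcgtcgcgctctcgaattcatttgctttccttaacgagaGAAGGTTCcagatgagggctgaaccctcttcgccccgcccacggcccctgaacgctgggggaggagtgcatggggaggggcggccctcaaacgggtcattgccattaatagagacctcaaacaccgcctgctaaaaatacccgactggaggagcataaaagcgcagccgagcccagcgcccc
HSPB8: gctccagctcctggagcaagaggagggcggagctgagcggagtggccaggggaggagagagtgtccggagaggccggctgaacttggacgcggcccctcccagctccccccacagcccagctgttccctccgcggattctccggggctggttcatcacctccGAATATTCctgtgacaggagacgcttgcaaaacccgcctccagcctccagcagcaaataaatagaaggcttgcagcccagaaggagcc
BAG3: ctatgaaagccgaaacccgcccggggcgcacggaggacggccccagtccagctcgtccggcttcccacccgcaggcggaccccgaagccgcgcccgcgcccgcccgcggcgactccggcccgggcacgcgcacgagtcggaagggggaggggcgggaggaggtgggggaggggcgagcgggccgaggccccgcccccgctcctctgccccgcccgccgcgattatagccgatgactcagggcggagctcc

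A MEF2 match lay in the windows of HSPB7 (CTAAATTTAG, 82 to 73 bases before the start) and HSPB3 (CTATAAATAG, 129 to 120 bases before). In HSPB3 the MEF2 match holds 1 of that gene's 2 TATAAA matches inside it. Such a match is in 2.9% of 27305 RefSeq promoter windows of this length. A heat shock element match lay in HSPB1 (GAAGGTTC), HSPB8 (GAATATTC), HSPB3 (TTCTTGAA) and HSPB6, and 11.7% of all windows hold 1. TATAAA was found in HSPB7, HSPB3 and HSPB6, and in 11.1% of all windows. No match to these letters lay in the BAG3 window. These are matches of letters and say nothing of binding.

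**Figure D1:**
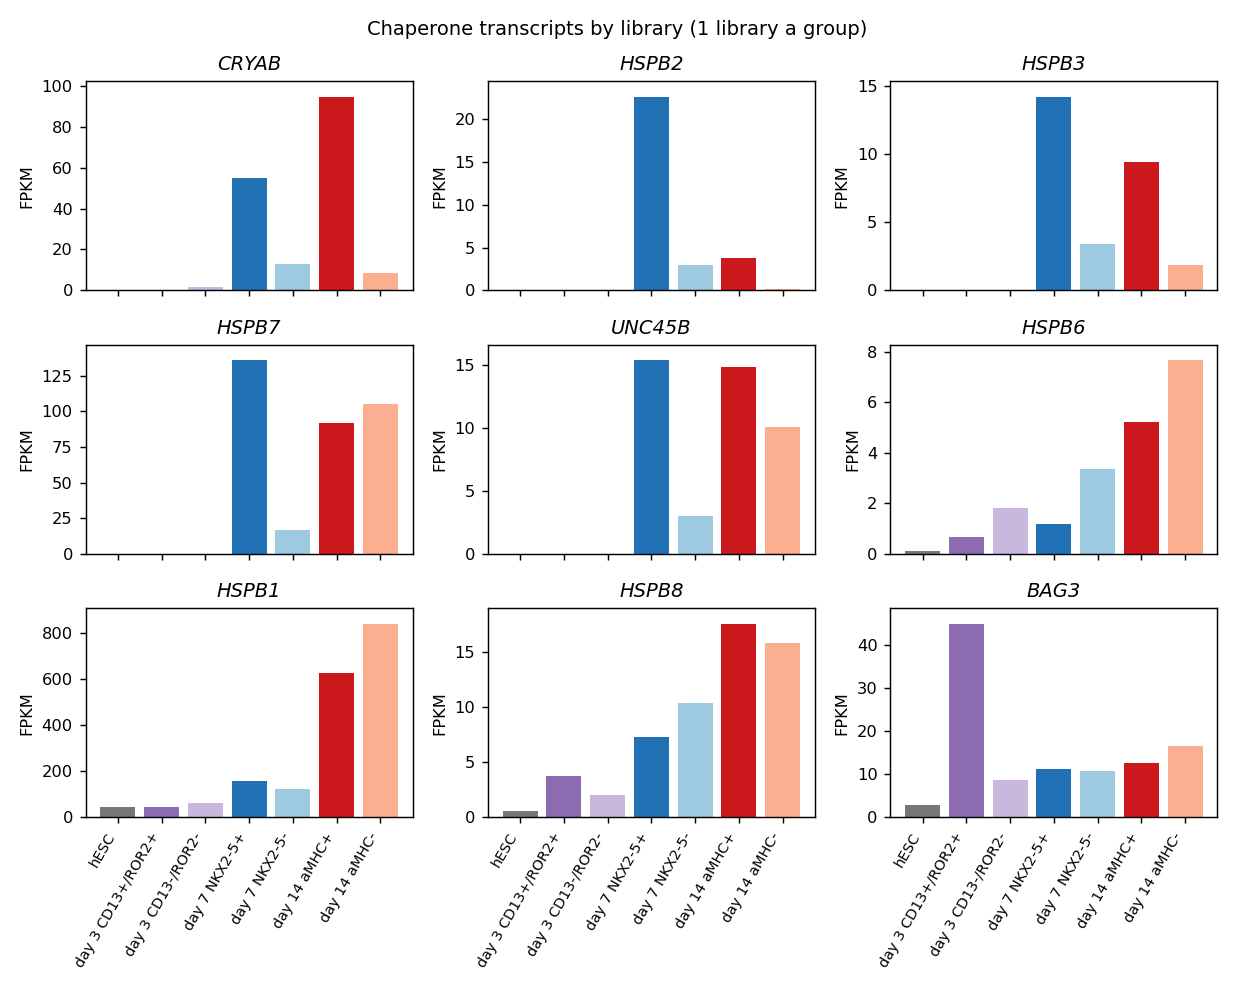
FPKM of the 9 genes (1 panel each, own linear axis from 0) in the 7 libraries, with 1 bar a library and no error bars because there is 1 library a group. CRYAB, HSPB2, HSPB3, HSPB7 and UNC45B are under 2 FPKM before day 7, HSPB1 reaches 624 and 839 FPKM on day 14, and BAG3 is highest in day 3 CD13+/ROR2+ (44.9 FPKM).

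CRYAB, HSPB2, HSPB3, HSPB6, HSPB7 and UNC45B were under 2 FPKM in hESC and both day 3 libraries. HSPB1 was above 5 FPKM in every library, while in the 3 libraries before day 7 HSPB8 ranged between 0.591 and 3.76 FPKM and BAG3 between 2.83 and 44.9. Of the 9, 1 reached 5 FPKM in hESC, 2 in each day 3 library, 8 in day 7 NKX2-5+, 5 in day 7 NKX2-5-, 8 in day 14 aMHC+ and 7 in day 14 aMHC-. In hESC, 3 were listed at 0 (CRYAB, HSPB2 and HSPB3), and an exact 0 in this table can be a failed estimate. Against hESC, 7 of the 9 were called higher in day 14 aMHC+ and 0 lower, where 8.76% of 6382 genes were called higher and 6.57% lower. The exceptions were HSPB2, at 3.78 FPKM and so under the minimum, and BAG3, at 12.6 FPKM in day 14 aMHC+ against 2.83 in hESC.

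CRYAB, or alpha-B crystallin, is the lens and muscle protein that protects desmin filaments. Its level was 0 FPKM in hESC, 0.0728 in day 3 CD13+/ROR2+, 1.37 in day 3 CD13-/ROR2-, 55.2 in day 7 NKX2-5+, 13.0 in day 7 NKX2-5-, 95.0 in day 14 aMHC+ and 8.48 in day 14 aMHC-. Day 14 aMHC+ and day 7 NKX2-5+ stood above every other library, while day 14 aMHC-, which is also NKX2-5+, lay below day 7 NKX2-5-. The day 14 pair differed 11.2-fold (log2 ratio 3.34) and the day 7 pair 4.24-fold, a ratio just inside the size rule. At day 14 aMHC+ CRYAB ranked 305th among all genes, against 3632nd in aMHC-. The lens list (CRYAA, CRYBB1, CRYGC, BFSP1 and BFSP2) summed to 1.34 FPKM in day 14 aMHC+ and 1.22 in day 7 NKX2-5+, with CRYAA at 0 in both.

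HSPB2, a small heat shock protein of heart and skeletal muscle that binds the myotonic dystrophy kinase, lies beside CRYAB on the opposite strand. It was listed at 0 in hESC and both day 3 libraries and stood at 22.7 FPKM in day 7 NKX2-5+, 3.01 in day 7 NKX2-5-, 3.78 in day 14 aMHC+ and 0.130 in day 14 aMHC-. Only the day 7 NKX2-5+ library passed 5 FPKM. The day 7 pair differed 7.54-fold. Its day 14 pair had a log2 ratio of 2.08, but neither library reached the minimum, and 0.130 FPKM rests on few reads. Day 14 aMHC+ was lower than day 7 NKX2-5+ by a log2 ratio of -2.31 (-2.89 after median-ratio scaling), the call made for 1 of the 9 genes in that comparison, where 0.829% of 5310 genes were called lower and 7.68% higher.

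The level of CRYAB relative to its neighbour was higher in both day 14 libraries than in both day 7 libraries. CRYAB was 2.44 times the HSPB2 level in day 7 NKX2-5+, 4.33 times in day 7 NKX2-5-, 25.1 times in day 14 aMHC+ and 65.3 times in day 14 aMHC-. This quotient does not depend on library scaling. In CRYAB itself, day 14 aMHC+ was 1.72-fold above day 7 NKX2-5+ (log2 ratio 0.77), which became 0.16 after median-ratio scaling, -0.12 at equal sums of FPKM and -0.17 at equal sums without small RNA and histone genes. The library kit does not mark strand, the annotation (GENCODE 29) has CRYAB overlapping HSPB2 and C11orf52 on the other strand, and HSPB2 overlaps on its own strand the readthrough gene HSPB2-C11orf52, listed at 7.04e-06 FPKM or less in all libraries, so reads could have been divided between these genes either way.

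HSPB3, which forms complexes with HSPB2 in muscle, was likewise listed at 0 in hESC and both day 3 libraries. Its levels were 14.2 FPKM in day 7 NKX2-5+ and 3.41 in day 7 NKX2-5-, then 9.40 in day 14 aMHC+ and 1.86 in day 14 aMHC-. The positive fraction was higher in each pair, by 4.16-fold on day 7 and 5.05-fold on day 14. With log2 ratios of 1.78 and 1.86 both lay just outside the size rule. After median-ratio scaling the day 7 ratio was 2.21 and passed it, and the day 14 ratio was 1.97. At equal sums of FPKM both passed it, at 3.84 on day 7 and 2.69 on day 14. HSPB3 was 0.626 times the HSPB2 level in day 7 NKX2-5+ and 2.49 times in day 14 aMHC+.

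HSPB7, a heart-rich small heat shock protein that in mice is needed for thin filament assembly, took another course. It stood at 0.0816 FPKM in hESC, 0.0599 in day 3 CD13+/ROR2+, 0.0314 in day 3 CD13-/ROR2-, 136 in day 7 NKX2-5+, 16.8 in day 7 NKX2-5-, 91.4 in day 14 aMHC+ and 105 in day 14 aMHC-. The day 7 fractions lay far apart (8.08-fold, log2 ratio 2.94). On day 14 the aMHC+ level was 0.869 times that of aMHC-, with a log2 ratio of -0.20 that became 0.01 after median-ratio scaling, 0.05 at equal sums without small RNA and histone genes and 0.33 at equal sums of FPKM, so no direction is given for that pair. HSPB7 was 0.963 times the CRYAB level in day 14 aMHC+ and 12.4 times in aMHC-.

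UNC45B, the myosin chaperone, was at 0.0139 FPKM in hESC, 0 in day 3 CD13+/ROR2+, 0.0107 in day 3 CD13-/ROR2-, 15.4 in day 7 NKX2-5+, 3.01 in day 7 NKX2-5-, 14.8 in day 14 aMHC+ and 10.0 in day 14 aMHC-. Its day 7 pair differed 5.11-fold (2.03) and its day 14 pair 1.48-fold (0.52), short of the size rule. SMYD1, a muscle methyltransferase that acts with the UNC45B and HSP90 pathway in zebrafish, was at 79.6 FPKM in day 7 NKX2-5+ against 6.57 in NKX2-5-, and at 42.7 in day 14 aMHC+ against 34.6 in aMHC-. UNC45A, the general form of the gene, was at 1.23 FPKM in day 7 NKX2-5+ against 2.45 in NKX2-5-, and at 4.62 in day 14 aMHC+ against 7.59 in aMHC-. UNC45B was 12.5 times the UNC45A level in day 7 NKX2-5+, 1.23 times in day 7 NKX2-5-, 3.21 times in day 14 aMHC+ and 1.32 times in day 14 aMHC-.

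**Figure D2:**
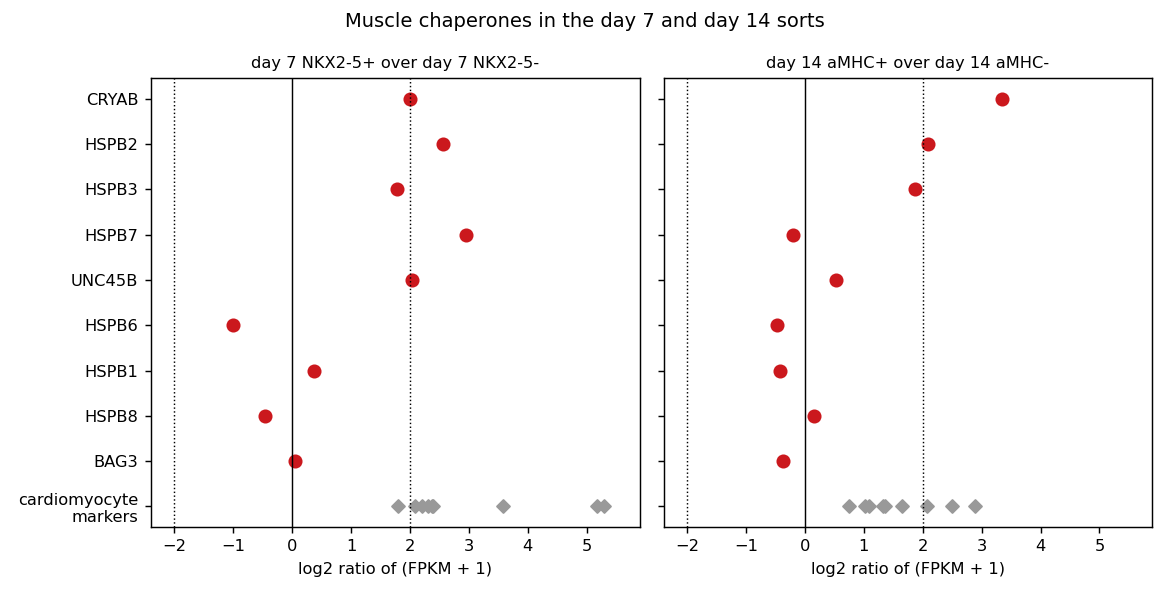
Log2 ratio of (FPKM + 1) in day 7 NKX2-5+ over NKX2-5- (left) and day 14 aMHC+ over aMHC- (right) for the 9 genes (red points) and 9 cardiomyocyte markers (grey diamonds), with dotted lines at 2 and -2. On day 7 CRYAB, HSPB2, HSPB7 and UNC45B are at 2 or above, and on day 14 HSPB7 is at -0.20 while CRYAB is at 3.34.

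In the day 7 sort, 4 of the 9 genes were called higher in NKX2-5+ (CRYAB, HSPB2, HSPB7 and UNC45B) and 0 lower, where 2.03% of 4981 genes were called higher and 5.42% lower. The median log2 ratio of the 9 was 1.78, against -0.47 over all genes tested. In the day 14 sort, 1 of the 9 was called higher in aMHC+ (CRYAB) and 0 lower, against 0.648% of 5712 genes higher and 0.35% lower. There the median of the 9 was 0.15, against -0.24 over all genes tested. Markers of other cells moved with the sorts too. The 7 fibroblast and matrix markers summed to 51.6 FPKM in day 7 NKX2-5+ against 697 in NKX2-5-, and to 353 in day 14 aMHC+ against 726 in aMHC-. The 6 liver and yolk sac markers summed to 62.2 FPKM in day 7 NKX2-5+ against 346 in NKX2-5-. On day 14 their sums went the other way, at 4.98 FPKM in aMHC+ against 3.29 in aMHC-, with none reaching 5 FPKM. The 5 epithelium markers summed to 88.8 FPKM in day 7 NKX2-5+ against 709 in NKX2-5-, and to 987 in day 14 aMHC+ against 1431 in aMHC-. KRT8 and KRT18 made up most of each of these sums (389 and 560 FPKM in day 14 aMHC+, where CDH1 and EPCAM were at 0.261 and 1.16). CLDN6 went the other way in both pairs, at 25.4 against 6.21 FPKM on day 7 and 37.6 against 35.3 on day 14. The 6 endothelium markers summed to 9.21 FPKM in day 7 NKX2-5+ against 36.4 in NKX2-5-, and to 1.40 in day 14 aMHC+ against 3.36 in aMHC-. The part of these lists in the differences was not tested.

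The 9 cardiomyocyte markers were 3.75- to 47.7-fold higher in day 7 NKX2-5+ than NKX2-5- (median 5.20) and 1.68- to 7.50-fold higher in day 14 aMHC+ than aMHC- (median 2.65). Their summed level was 3290 FPKM in day 7 NKX2-5+, 507 in day 7 NKX2-5-, 3268 in day 14 aMHC+ and 1359 in day 14 aMHC-. Divided by that sum, the chaperones can be read without library scaling. HSPB7 was 4.13% of it in day 7 NKX2-5+, 3.32% in day 7 NKX2-5-, 2.80% in day 14 aMHC+ and 7.74% in day 14 aMHC-, and UNC45B ranged between 0.454% and 0.739%. CRYAB was 1.68%, 2.57%, 2.91% and 0.624% of the sum in the same order of libraries, lowest in day 14 aMHC-. HSPB2 was 0.689%, 0.594%, 0.116% and 0.00956%, and HSPB3 was 0.432%, 0.674%, 0.288% and 0.137%. Both were lower in each day 14 library than in each day 7 library.

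**Figure D3:**
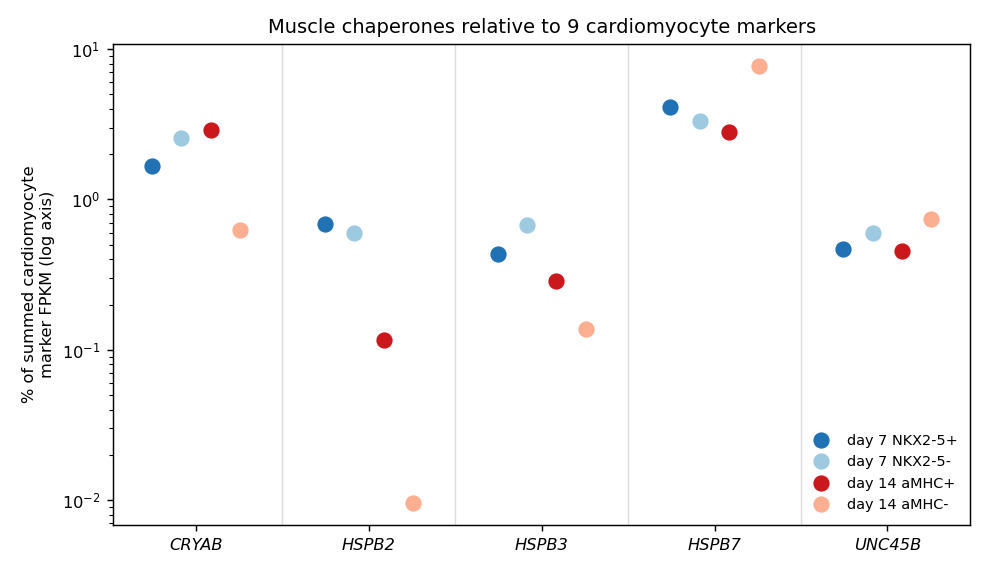
Level of 5 muscle chaperone genes as a percentage of the summed FPKM of 9 cardiomyocyte markers (log axis) in the 4 libraries of days 7 and 14, 1 point a library. CRYAB and HSPB7 part in day 14 aMHC- (0.624% and 7.74%), and HSPB2 and HSPB3 are lower in both day 14 libraries than in both day 7 libraries.

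Skeletal muscle also makes CRYAB, HSPB2, HSPB3 and UNC45B, and its markers were read in the same libraries. Of 5 regulators of skeletal muscle (MYF5, MYOD1, MYOG, MYF6 and PAX7), 4 were at 0 in all 4 libraries of days 7 and 14, and the highest value was 0.185 FPKM (PAX7, day 7 NKX2-5-). CKM and ACTA1, which heart muscle also expresses, were at 29.9 and 570 FPKM in day 14 aMHC+.

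HSPB6, or HSP20, is a target of protein kinase A that is abundant in smooth and heart muscle. It was the least abundant of the small heat shock proteins in day 7 NKX2-5+, with levels of 0.103 FPKM in hESC, 0.672 in day 3 CD13+/ROR2+, 1.83 in day 3 CD13-/ROR2-, 1.18 in day 7 NKX2-5+, 3.36 in day 7 NKX2-5-, 5.23 in day 14 aMHC+ and 7.66 in day 14 aMHC-. The positive fraction held 0.368 times the level of the negative one on day 3, 0.352 times on day 7 and 0.683 times on day 14. None of these passed the size rule, and the day 7 log2 ratio was 0.39, so the other way, at equal sums of FPKM. The smooth muscle markers summed to 514 FPKM in day 7 NKX2-5+ against 616 in NKX2-5-, and to 863 in day 14 aMHC+ against 979 in aMHC-. ACTA2 made up most of both day 7 sums. It was higher in NKX2-5+ (456 against 421 FPKM), as was LMOD1, and the other markers were lower, with TAGLN at 21.1 against 144. On day 14 MYH11 (12.2 against 5.09 FPKM), MYLK and DES were higher in aMHC+ and the other markers lower.

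HSPB1, or HSP27, binds actin filaments and is made in most cells. Its levels were 45.9 FPKM in hESC, 44.8 in day 3 CD13+/ROR2+, 62.8 in day 3 CD13-/ROR2-, 157 in day 7 NKX2-5+, 122 in day 7 NKX2-5-, 624 in day 14 aMHC+ and 839 in day 14 aMHC-. Both day 14 libraries stood above all the others. Day 14 aMHC+ was 13.6-fold above hESC and 3.97-fold above day 7 NKX2-5+ (log2 ratio 1.98, just outside the size rule, and 1.37 after median-ratio scaling). Day 7 NKX2-5+ was 1.29-fold above NKX2-5- (log2 ratio 0.37), which became 0.80 after median-ratio scaling and 2.30, past the size rule, at equal sums of FPKM. On day 14 aMHC+ was at 0.744 times the aMHC- level (log2 ratio -0.43, but 0.11 at equal sums). Day 7 NKX2-5- over day 3 CD13+/ROR2+ had a log2 ratio of 1.42, but 0.24 at equal sums. HSPB1 ranked 43rd of all genes in day 14 aMHC+ and 36th in aMHC-, against 504th in hESC.

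HSPB1 made up most of the small heat shock protein RNA in all but 1 library. The 7 genes summed to 46.7 FPKM in hESC, 49.3 in day 3 CD13+/ROR2+, 68.1 in day 3 CD13-/ROR2-, 394 in day 7 NKX2-5+, 172 in day 7 NKX2-5-, 846 in day 14 aMHC+ and 978 in day 14 aMHC-. HSPB1 was 98.3% of that in hESC, 40.0% in day 7 NKX2-5+, 70.9% in day 7 NKX2-5-, 73.7% in day 14 aMHC+ and 85.8% in day 14 aMHC-. Day 7 NKX2-5+ stood out by HSPB7, at 34.5% of the sum, and CRYAB, at 14.0%. HSPB7 took like shares in the day 14 fractions (10.8% in each), whereas CRYAB was 11.2% in aMHC+ and 0.867% in aMHC-.

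**Figure D4:**
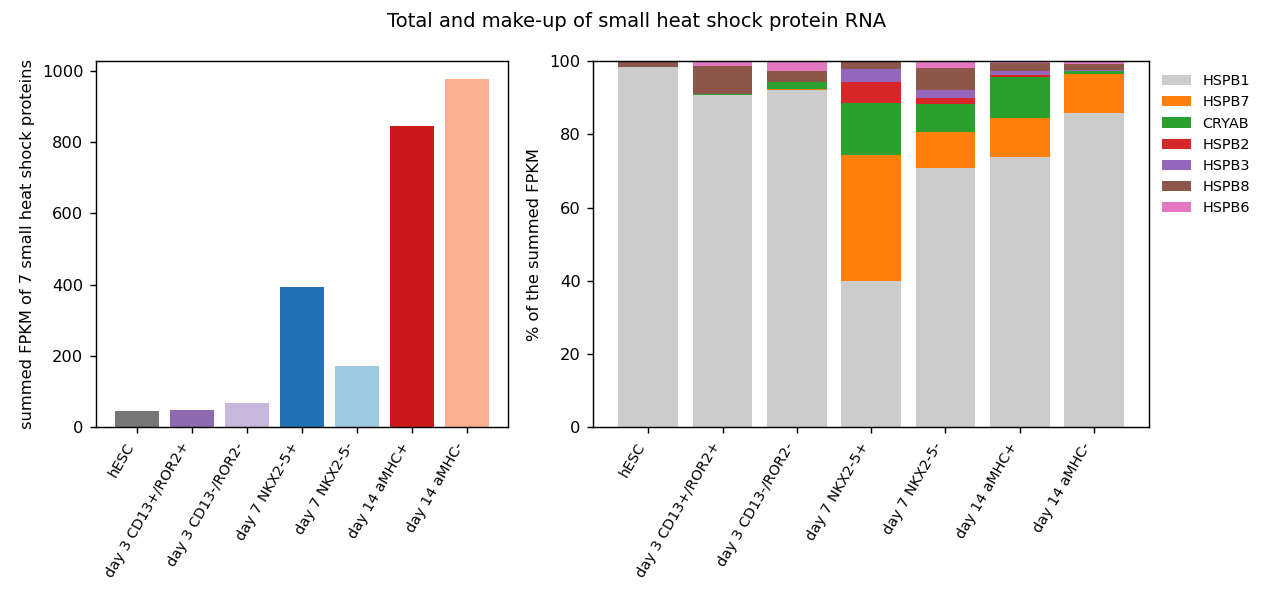
Summed FPKM of the 7 small heat shock protein genes (left, linear axis from 0) and the percentage of that sum from each gene (right) in the 7 libraries. HSPB1 is under 50% of the sum in day 7 NKX2-5+ alone (40.0%), where HSPB7 is 34.5%.

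HSPB8, or HSP22, is the small heat shock protein that BAG3 binds. It stood at 0.591 FPKM in hESC, 3.76 in day 3 CD13+/ROR2+, 2.05 in day 3 CD13-/ROR2-, 7.34 in day 7 NKX2-5+, 10.4 in day 7 NKX2-5-, 17.6 in day 14 aMHC+ and 15.8 in day 14 aMHC-. In FPKM as deposited both day 14 libraries stood above the others, with day 14 aMHC+ 29.8-fold above hESC. Neither sort of day 7 or day 14 divided it past the size rule (log2 ratios -0.45 and 0.15), and the day 7 ratio was 1.40 at equal sums of FPKM.

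BAG3 was the exception among the 9, with its highest value on day 3. Its levels were 2.83 FPKM in hESC, 44.9 in day 3 CD13+/ROR2+, 8.63 in day 3 CD13-/ROR2-, 11.3 in day 7 NKX2-5+, 10.8 in day 7 NKX2-5-, 12.6 in day 14 aMHC+ and 16.7 in day 14 aMHC-. Day 3 CD13+/ROR2+ stood above every other library. That library also had 2.64 times the hESC depth, and its 6 pluripotency markers summed to 273 FPKM against 702 in CD13-/ROR2- and 686 in hESC. The part of depth and of these markers was not tested. BAG3 there was 15.8-fold above hESC (log2 ratio 3.58) and 5.21-fold above CD13-/ROR2- (2.25), the call made for 1 of the 9 genes in each comparison. The backgrounds were 4.5% of 5871 genes higher and 2.54% lower against hESC, and 3.69% of 5875 genes higher and 2.54% lower against CD13-/ROR2-. In day 3 CD13-/ROR2- over hESC 0 of the 9 were called, BAG3 having a log2 ratio of 1.33, beside 1.45% of 5705 genes higher and 1.17% lower. Day 7 NKX2-5+ was at 0.251 times the day 3 CD13+/ROR2+ level (log2 ratio -1.90, and -1.26 after median-ratio scaling).

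The partners of BAG3 were read beside it. HSPA8, the constitutive HSP70 that takes clients from BAG3, had 403 FPKM in the CD13+/ROR2+ cells of day 3, 233 FPKM in their CD13-/ROR2- counterparts and 144 FPKM in hESC. DNAJA1, the most abundant HSP40 cochaperone on the list in that library, was at 98.3 FPKM against 61.8 in CD13-/ROR2- and 40.4 in hESC. HSPA1A, a heat-inducible HSP70, was at 12.7 FPKM in CD13+/ROR2+, 13.1 in CD13-/ROR2- and 2.24 in hESC, so both day 3 fractions were called higher than hESC while they stood close to each other, although reads of its near-identical copy HSPA1B (5.41, 7.24 and 1.11 FPKM) could have been split either way. Heat-inducible DNAJB1, named after its values were seen, had 8.53 FPKM in CD13+/ROR2+, 7.56 in CD13-/ROR2- and 3.16 in hESC. FLNC, the muscle filamin cleared through BAG3, was at 13.7, 5.31 and 0.472 FPKM in these libraries, and was 42.9 in day 14 aMHC+ and 85.6 in aMHC-. STUB1 was at 8.56 FPKM in day 3 CD13+/ROR2+, 3.14 in CD13-/ROR2- and 7.81 in hESC. It was 23.7 and 23.9 FPKM in the day 14 fractions, against 5.18 in day 7 NKX2-5+ and 7.25 in day 7 NKX2-5-. SYNPO2, from the list of autophagy partners, was at 0.00583 FPKM in day 3 CD13+/ROR2+, 0.219 in CD13-/ROR2- and 0.513 in hESC. HSPA8 was at 275 FPKM in day 14 aMHC+ and 373 in aMHC-, and DNAJA1 at 88.6 and 106. HSPA1A was at 15.7 and 24.2 FPKM in the same libraries, and DNAJB1 at 8.08 and 10.1. DNAJA1, HSPA1A and DNAJB1 were thus highest in day 14 aMHC-, and HSPA8 in day 3 CD13+/ROR2+. The ratio of HSPB8 to BAG3 was 0.0837 in day 3 CD13+/ROR2+ and 1.40 in day 14 aMHC+.

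**Figure D5:**
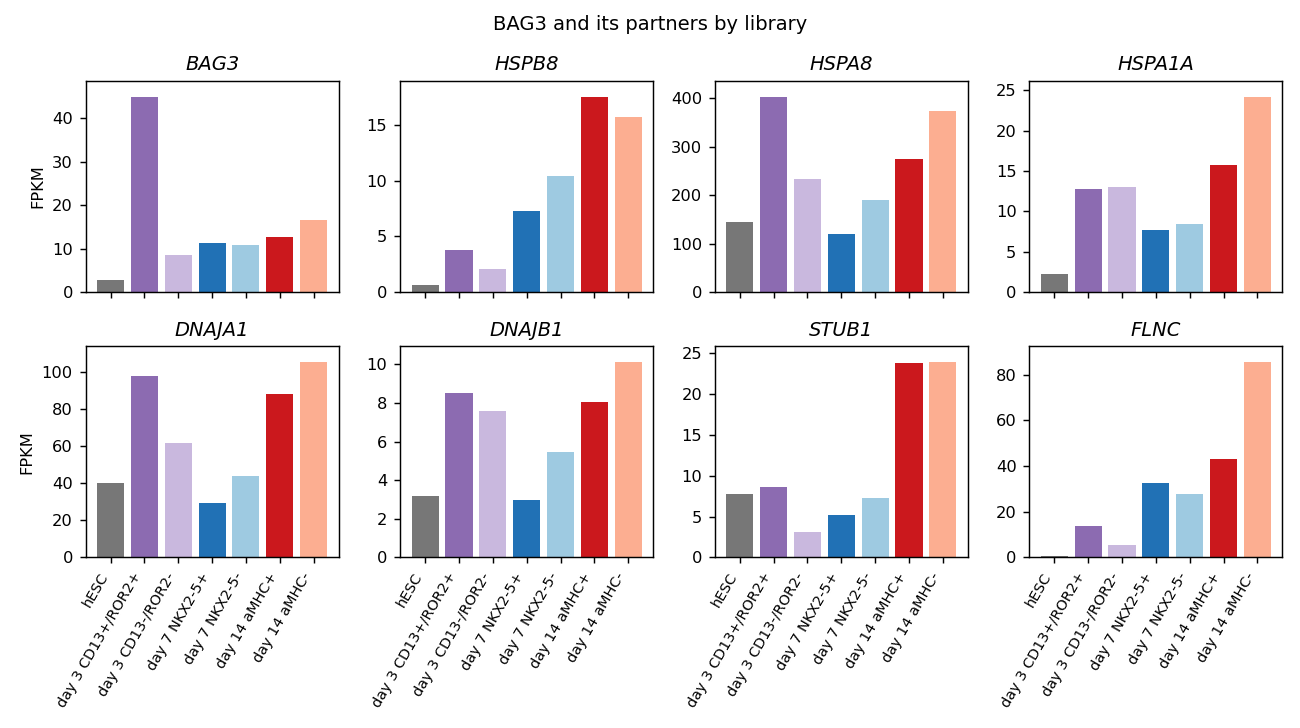
FPKM of BAG3, HSPB8, the HSP70 genes HSPA8 and HSPA1A, the HSP40 genes DNAJA1 and DNAJB1, STUB1 and FLNC (1 panel each, linear axis from 0) in the 7 libraries, 1 bar a library. BAG3 and HSPA8 are highest in day 3 CD13+/ROR2+ (44.9 and 403 FPKM). HSPB8, HSPA1A, DNAJA1, DNAJB1, STUB1 and FLNC are highest on day 14.

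The general chaperones were read in the same comparisons. Of 77 other chaperone genes (HSP70, HSP40 and HSP90 families, chaperonins, other BAG and small heat shock genes, heat shock factors and autophagy partners), 1 was called higher and 1 lower in day 7 NKX2-5+ over NKX2-5-, and 0 either way in day 14 aMHC+ over aMHC-, beside the 2.03% higher and 5.42% lower (day 7) and 0.648% higher and 0.35% lower (day 14) of all genes tested given above. Of the 77, 47 reached the minimum level on day 7 and 52 on day 14, so these counts are near the shares over all genes. The called ones on day 7 were SMYD1 (higher) and MAP1LC3A (10.1 FPKM in NKX2-5- and listed at 0 in NKX2-5+). Against day 3 CD13+/ROR2+, day 7 NKX2-5+ had 5 of the 9 muscle genes called higher (CRYAB, HSPB2, HSPB3, HSPB7 and UNC45B), where 4.38% of 5633 genes were called higher and 9.09% lower, and 1 of the 77 higher and 2 lower (HSP90B1, at 73.2 against 313 FPKM, and FKBP4, at 4.35 against 22.9), which median-ratio scaling made 1 and 0. Day 7 NKX2-5- over day 3 CD13+/ROR2+ had 2 of the 9 called higher (CRYAB and HSPB7), where 5.35% of 5939 genes were called higher and 3.69% lower. All comparisons with a shared library share its error.

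The chaperonin genes, most of which serve the folding of actin and tubulin, differed between day 7 and day 3 by a median log2 ratio of -1.46 in NKX2-5+ over CD13+/ROR2+, against -0.77 over all genes tested. After median-ratio scaling these medians were -0.79 and -0.17. Of the 11 chaperonin genes 0 passed the size rule, where 4.38% of 5633 genes were called higher and 9.09% lower. HSP90AB1, the most abundant of the HSP90 list, was at 666 FPKM in hESC, 581 in day 3 CD13+/ROR2+, 152 in day 7 NKX2-5+ and 299.9 in day 14 aMHC+. The list of proteins served by these chaperones held 13 genes: DES, FLNC, ACTN2, TTN, MYH6, MYH7, MYL7, ACTC1, TPM1, CAPZB, LDB3, VIM and LMNA. CAPZB, VIM and LMNA are not particular to muscle. Of the 13, 12 were called higher in day 14 aMHC+ than in hESC and 0 lower. In that comparison 8.76% of 6382 genes were called higher and 6.57% lower. Those 12 included desmin (DES) at 5.48 against 0.297 FPKM, titin (TTN) at 116 against 0.635 and the Z-disc gene LDB3 at 49.6 against 0.211. VIM, at 276 against 10.5 FPKM, and LMNA, at 18.1 against 3.33, were also among the 12, and CAPZB was not (43.2 FPKM in both). Day 7 NKX2-5+ over NKX2-5- had 4 higher and 1 lower of the 13, where 2.03% of all genes tested were higher and 5.42% lower, and 6 higher and 0 lower after median-ratio scaling. The 1 called lower was VIM, at 92.7 FPKM in NKX2-5+ against 387 in NKX2-5-. DES was at 10.4 FPKM in NKX2-5+ against 15.9 in NKX2-5- and was not called. The other small heat shock protein genes on the list were HSPB11 (5.40 to 13.2 FPKM over the libraries), CRYAA and HSPB9 (0.465 FPKM or less) and ODF1, listed at 0 in all.

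Profiles were compared over genes that reached 5 FPKM in a library, 7489 once small RNA, histone and LOC symbols were left out. Genes with profiles most like each chaperone were named from Pearson's r of log2(FPKM + 1) over the 7 libraries, which share days and scaling. For HSPB7 these were the transcription factor gene MEF2C (r = 0.997), POPDC2 (0.997) and XIRP1 (0.995), and for UNC45B POPDC2 (0.999), ASB2 (0.999) and SMPX (0.998). CRYAB was most like CMYA5 (0.976), ACTN2 (0.975) and PPP1R12B (0.972). HSPB3 was most like CMYA5 (0.993), MYO18B (0.990) and A2M (0.989), and HSPB2 most like SH3BGR (0.969), KBTBD10 (0.966) and COL22A1 (0.963). The nearest to BAG3 were GATA6 (0.971), ROR2 (0.959), which encodes a protein used for the day 3 sort, and WNT5A (0.959). For HSPB1 TIMM22 (0.992) came first, for HSPB6 OST4 (0.992) and for HSPB8 FAM127A (0.992). Among the 9 genes, HSPB7 and UNC45B were the most alike pair (r = 0.993), CRYAB and its neighbour HSPB2 had 0.823, and BAG3 had between -0.03 and 0.45 with the other 8.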

How the data were processed

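RNA of 7 cell populations, 1 library each, was sequenced as single reads of 50 bases from an unstranded kit, per the labels' protocols. The authors deposited 1 table of FPKM values per gene. Cufflinks and hg19 are named in the submitters' processing notes. Versions, aligner and annotation: not given in the sources used here. This table held 23368 rows, of which 106 blank rows, without values, were left out. Counts were not used here, so depth is known only relative to hESC, from the steps between low values.

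Ratios were computed on log2(FPKM + 1), which understates changes of low genes, in 9 comparisons over the whole table with pandas 2.3.3 and numpy 2.4.6. A call needed a size of 2 (4-fold) and 5 FPKM in the higher library. With 1 library a group no test was possible. The calling steps were tested on simulated data. The 9 genes and all gene lists were chosen with earlier results of these data known. Other genes are named per list and comparison: at most 3 past the size rule, or the most abundant where none passes, plus known partners of BAG3 and UNC45B. DES, TTN, LDB3, VIM, LMNA and CAPZB were named after their values were seen. Genes overlapping CRYAB and HSPB2 come from GENCODE 29 by name (overlaps of the other genes are not reported here), and promoters from RefSeq (GRCh38.p14), a build other than hg19, so coordinates of these builds were not mixed. Alternatives were other pseudocounts (0.1 and 5), no minimum, 3 scalings and a 2-fold size.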

Additional observations from a re-analysis of the deposited data

How the results depend on the processing

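Counts of the 9 genes called changed by over 1.5 times as follows. With a pseudocount of 0.1 the count became 2 in place of 1 for day 14 aMHC+ over aMHC- and 2 in place of 1 (1 higher, 1 lower) for day 14 aMHC+ over day 7 NKX2-5+. With a pseudocount of 5 it became 1 in place of 4 for day 7 NKX2-5+ over NKX2-5-, 0 in place of 1 for day 3 CD13+/ROR2+ over CD13-/ROR2- and for day 14 aMHC+ over day 7 NKX2-5+, 1 in place of 2 for day 7 NKX2-5- over day 3 CD13+/ROR2+, and 4 in place of 7 for day 14 aMHC+ over hESC. With no minimum FPKM it became 2 in place of 1 for day 14 aMHC+ over aMHC- and 5 in place of 2 for day 7 NKX2-5- over day 3 CD13+/ROR2+. At equal sums of FPKM it became 3 in place of 1 for day 14 aMHC+ over aMHC-, 2 (1 higher, 1 lower) in place of 1 for day 3 CD13+/ROR2+ over CD13-/ROR2-, 2 in place of 1 for CD13+/ROR2+ over hESC, 3 in place of 0 for CD13-/ROR2- over hESC, and 6 (5 higher, 1 lower) in place of 2 for day 7 NKX2-5- over day 3 CD13+/ROR2+. At a 2-fold size it became 2 for day 14 aMHC+ over aMHC-, 1 for CD13-/ROR2- over hESC, 5 for day 7 NKX2-5- over day 3 CD13+/ROR2+ and 4 for day 14 aMHC+ over day 7 NKX2-5+. The cause was not tested. Of 81 single log2 ratios, none of those called turned sign under any scaling or pseudocount; among the others 10 did at equal sums, 4 at equal sums that left out small RNA and histone genes, and 2 with median-ratio scaling. No paired analysis was possible because each group is 1 library. Without replicates no value carries an error, and levels under 1 FPKM rest on few reads.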
